A study of Mus musculus with 10 samples.

Results

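Mature dendritic cells (DC) that carry the migration genes Ccr7 and Fscn1 were examined in CD45+ cells sorted from SW1 melanoma tumors of mice. A cell was counted as a mature DC when its barcode held at least 500 genes and at most 10% mitochondrial UMIs, at least 2 of Ccr7, Fscn1 and Ccl22 were detected with a sum of at least 3 UMIs, no UMI of Cd3e, Cd3d or Cd3g was found (T cell genes), and no UMI of Sox10 (a gene of the melanoma lineage). A UMI is a molecular tag that counts 1 captured mRNA molecule. Of 31156 barcodes past the filters on genes and mitochondrial UMIs, out of 41936 in all, 55 met this rule. The members were chosen by the UMIs of Ccr7, Fscn1 and Ccl22, so the levels of these 3 genes are given as a description only.

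SW1 is a melanoma line grown under the skin of female C3H/HeJ mice, aged 4 to 6 weeks, a strain with a defective Tlr4. Per the labels tumors grew for 10 days before treatment, while the methods of the study give a longer time. Every mouse in all 5 groups carried the same tumor line. The day 0 library pooled 3 pretreatment mice and is labelled control water. The other 4 libraries pooled mice given control water or water with L-fucose (L-fuc, a sugar that cells attach to glycans) for 7 or 21 days. The labels give the L-fuc concentration as 100 mM in one protocol and 100 nM in another, and 6 or 5 mice an arm. Each of the 5 conditions was 1 pooled library, so no condition has a replicate, nothing was tested between conditions, and no mouse can be told from another. All intervals between libraries cover counting error only, not the spread between mice.

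Dendritic cells take up antigen in a tissue and, on maturation, switch on Ccr7, the receptor that guides them to lymph nodes, and Fscn1, which bundles actin in their long processes. Mature DC also release Ccl22 and Ccl17, ligands of Ccr4 on regulatory and helper T cells, and are known for costimulatory molecules, for checkpoint ligands such as Cd274 (PD-L1) and for non-canonical NF-kB signalling through Relb and Nfkb2. In tumors such cells are found in small numbers beside cDC1 (the cross-presenting lineage marked by Xcr1 and Clec9a), Cd209a DC (cDC2 or monocyte-derived DC) and macrophages.

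The libraries held very different amounts of material. They totalled 14439185 UMIs at day 0, 119047810 in control day 7, 88986101 in L-fuc day 7, 21727157 in control day 21 and 16589803 in L-fuc day 21, and 1470, 17897, 9034, 1573 and 1182 barcodes passed the filters in the same order. The 55 mature DC came as 18 from day 0, 13 from control day 7, 18 from L-fuc day 7, 2 from control day 21 and 4 from L-fuc day 21. Their median depth was 3703.5 UMIs a barcode at day 0, 3746 in control day 7, 2487 in L-fuc day 7, 3374 in control day 21 and 9996 in L-fuc day 21. Single barcodes weighed heavily in these sums, since the deepest one held 31.8%, 25.7%, 24.3%, 62.6% and 58.3% of the mature DC UMIs of its library in that order. Across libraries 706 barcode sequences occurred more than once, and 1 of them belonged to a mature DC. The Sox10 gene, which a CD45+ sort should remove with the tumor cells, was detected in 18.8% of barcodes at day 0, 61.7% in control day 7, 40.5% in L-fuc day 7, 32.5% in control day 21 and 30.7% in L-fuc day 21.

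Among the genes the rule read, Ccr7 had 330 UMIs in 14 of the 18 mature DC of day 0, 131 in 9 of 13 of control day 7, 37 in 13 of 18 of L-fuc day 7, 15 in 1 of 2 of control day 21 and 200 in all 4 of L-fuc day 21. Most of these UMIs came from few cells, since 1 barcode held 64.2% of the Ccr7 UMIs of day 0 and 75.6% of those of control day 7. Fscn1 was detected in 52 of the 55 barcodes, with 305, 85, 75, 19 and 204 UMIs in the 5 libraries. Ccl22 was detected in 35, with 93, 49, 21, 4 and 47 UMIs. All 3 genes were present in 18 barcodes, and the sum of the 3 ranged from 3 to 330 UMIs with a median of 9. The 6 barcodes just inside the threshold, with 2 genes and a sum of 3, included 1 with a UMI of Cacnb3, and the 14 just outside it, with 2 genes and a sum of 2, also included 1. Of the 25 barcodes with a sum of at least 10, 18 had Cacnb3. A further 350 barcodes had at least 3 UMIs of 1 gene alone, 308 of them of Fscn1, and 35 of the 350 had Cacnb3. Fscn1 was not particular to DC in these tumors, since it was found in 92.8%, 65.1%, 78.1%, 88.1% and 70.2% of the Sox10-positive barcodes of the 5 libraries.

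**Figure D1:**
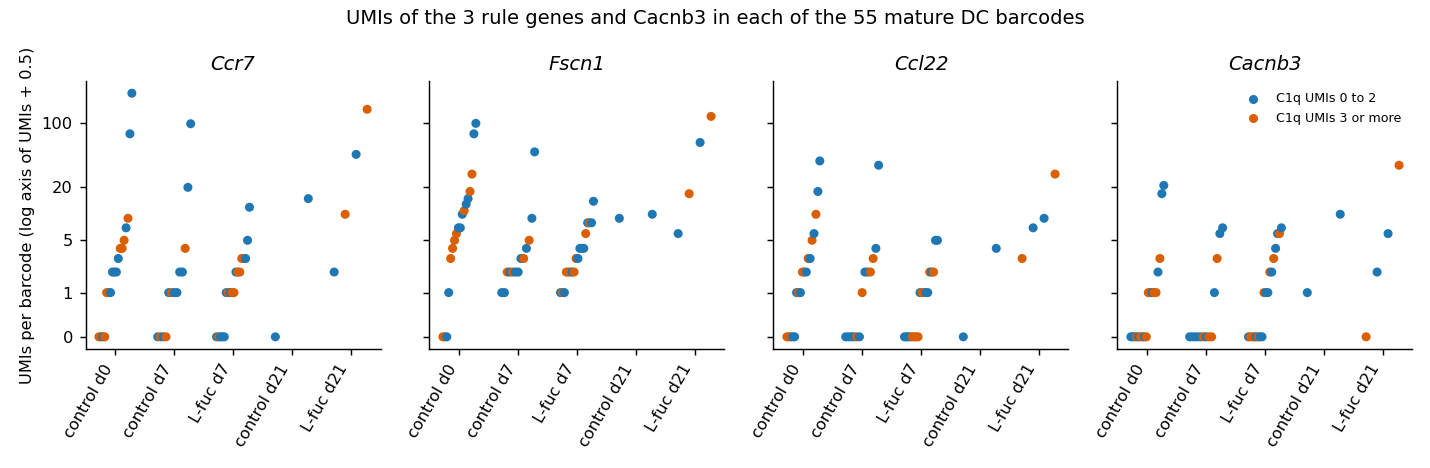
UMIs of the 3 genes of the rule and of Cacnb3 in each of the 55 mature DC barcodes, by library, on a log scale of UMIs + 0.5, with orange for barcodes of at least 3 C1q UMIs and blue for the others. The highest Ccr7 values come from single barcodes of day 0 (212 UMIs), L-fuc day 21 (142) and control day 7 (99), while no barcode of L-fuc day 7 is above 12.

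Cacnb3, a calcium channel subunit that marks mature DC and that the rule did not read, was detected in 28 of the 55 barcodes. It had 48 UMIs in 9 barcodes at day 0, 17 in 4 in control day 7, 33 in 10 in L-fuc day 7, 11 in 2 in control day 21 and 43 in 3 in L-fuc day 21. Scaled to the total UMIs of the mature DC in a library (CPM), this was 261, 246, 359, 1630 and 810, so that the 3 libraries with more than 10 mature DC lay within a narrow range. The day 21 libraries stood above them, but 1 barcode held 90.9% of these UMIs in control day 21 and 81.4% in L-fuc day 21. Fabp3, another listed marker, was found in only 2 barcodes. Of the 55 barcodes, 26 held no other lineage above the minimum set for each: 23 held at least 3 UMIs of the macrophage complement genes C1qa, C1qb and C1qc (9, 4, 8, 0 and 2 by library), 4 held the B cell genes Cd79a or Cd79b (all day 0), 5 held tumor genes (all control day 7), 3 held NK cell genes (1 in control day 7 and 2 in L-fuc day 7) and 2 held plasmacytoid DC genes (both control day 7). No T cell receptor contig was found in any of the 55, which the rule nearly fixed, since 2381 of the 2463 barcodes with a contig past the filters also held a Cd3 UMI. The name mature DC therefore stands for a mixed set by these markers, and for several lists and leading genes the values are also given without the 23 barcodes of high C1q. Cacnb3 was detected in 17 of the 32 barcodes of low C1q (at most 2 C1q UMIs) and 11 of the 23 of high C1q. Whether such barcodes held more than 1 cell or free RNA was not tested. Leaving out the highest Scrublet doublet scores at the expected rate took 1, 256, 65, 1 and 1 barcodes by library and none of the 55, which says little at so low a rate.

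The mature DC sums also carried these other lineages unevenly between libraries. The 11 macrophage genes together stood at 11312 CPM at day 0, 7457 in control day 7, 11234 in L-fuc day 7, 445 in control day 21 and 2110 in L-fuc day 21. Tumor genes stood at 0, 1042.5, 43.5, 0 and 18.8 CPM, led by Sparc with 64 UMIs in 10 barcodes of control day 7. NK cell genes stood at 5.44, 304, 2471, 0 and 0 CPM, and B cell genes at 810, 43.4, 10.9, 0 and 0 CPM. The part of these cells in the differences described below was not tested unless a value without them is given.

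Relb and Nfkb2 are the transcription factors of the non-canonical NF-kB pathway, and Cacnb3 is the marker outside the rule with the largest fold against macrophages among the listed genes that were higher. The 250 bases upstream of the first listed start of each gene are shown so that the regulator and the marker can be compared. They are RefSeq sequences of build GRCm38.p6, Nfkb2 at chr19:46304487-46304736 and Cacnb3 at chr15:98632078-98632327, both on the plus strand. Capitals mark matches to the NF-kB consensus motif on either strand.
Nfkb2: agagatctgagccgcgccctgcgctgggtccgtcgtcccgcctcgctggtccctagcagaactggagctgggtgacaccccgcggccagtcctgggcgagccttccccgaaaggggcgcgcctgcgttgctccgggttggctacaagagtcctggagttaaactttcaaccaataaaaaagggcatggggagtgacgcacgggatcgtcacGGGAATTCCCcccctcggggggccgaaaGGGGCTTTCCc
Cacnb3: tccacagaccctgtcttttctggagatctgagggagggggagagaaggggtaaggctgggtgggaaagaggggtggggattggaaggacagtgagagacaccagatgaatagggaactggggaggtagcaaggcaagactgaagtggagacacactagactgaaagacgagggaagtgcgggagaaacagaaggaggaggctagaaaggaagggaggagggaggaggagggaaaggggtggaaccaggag
Nfkb2 held 2 matches, 39 and 11 bases from the start, and Cacnb3 held 0 in this window. Over the same 250 upstream bases of all 32851 promoters in the table, 5.00% held a match. Among 18 listed transcription regulators with a promoter in the table, 5 of 23 promoters did (Irf1, Nfkb2, Rel and Spib), as did 3 of 15 of checkpoint genes, 3 of 22 of receptors and survival genes and 0 of 7 of costimulatory ligands. A match is a description of letters and does not show binding.

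Mature DC were rare in every library. They made up 1.22% of barcodes past the filters at day 0 (exact 95% interval 0.727 to 1.93), 0.0726% in control day 7 (0.0387 to 0.124), 0.199% in L-fuc day 7 (0.118 to 0.315), 0.127% in control day 21 (0.0154 to 0.459) and 0.338% in L-fuc day 21 (0.0923 to 0.864). The share was thus highest before treatment, and it was higher with L-fuc than with control water at both times. The ratio of L-fuc to control was 2.74 at day 7 (exact interval 1.27 to 6.09) and 2.66 at day 21 (0.381 to 29.4), the second of which spans 1. The ratio of control day 7 to day 0 was 0.0593 (0.0267 to 0.128). With barcodes of low C1q alone, the ratio of L-fuc to control was 2.20 (0.804 to 6.12) at day 7 and 1.33 (0.0965 to 18.4) at day 21, and both intervals span 1. The day 7 interval also spanned 1 among barcodes with Ptprc, the gene of CD45 (1.87, 0.703 to 5.27), with at least 1000 genes (2.14, 0.699 to 6.53), with barcodes thinned to 2000 UMIs (2.002, 0.599 to 6.69) and with all 3 genes of the rule required (3.30, 0.642 to 21.3). These ratios share the control day 7 library and depend on what the cells are divided by. With barcodes without Sox10 as the denominator, an alternative chosen after seeing the data, the ratio was 1.77 (0.819 to 3.92) at day 7, 2.59 (0.372 to 28.7) at day 21 and 0.126 (0.0566 to 0.271) for control day 7 over day 0. As a share of mature DC, Cd209a DC and cDC1 together, mature DC were 66.7%, 41.9%, 38.3%, 12.5% and 36.4% by library, and the ratio at day 7 turned to 0.913 (0.423 to 2.03). The 3 groups of DC had 18, 5 and 4 barcodes at day 0, 13, 12 and 6 in control day 7, 18, 23 and 6 in L-fuc day 7, 2, 3 and 11 in control day 21 and 4, 3 and 4 in L-fuc day 21. In L-fuc day 7 the Cd209a DC were thus more frequent than mature DC, and in control day 21 cDC1 were.

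**Figure D2:**
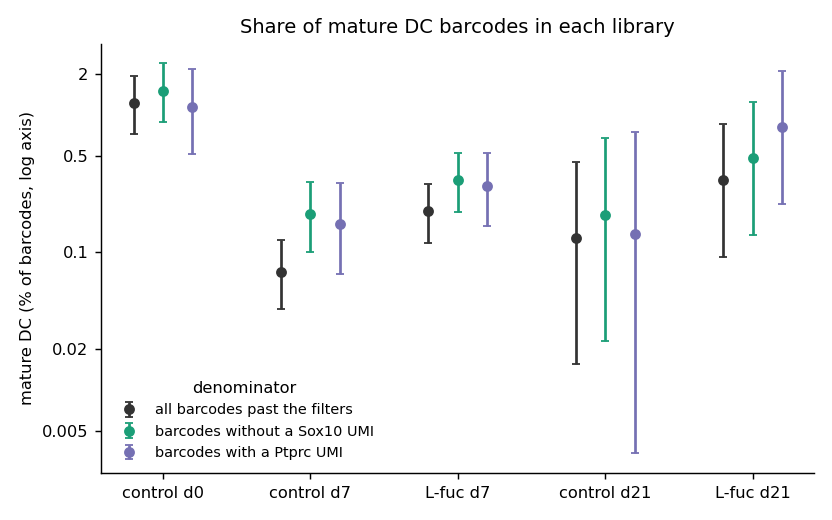
Mature DC as a percentage, on a log axis, of all barcodes past the filters, of those without a Sox10 UMI and of those with a Ptprc UMI in each of the 5 libraries, with exact 95% binomial intervals that cover counting error only. Of all barcodes, day 0 stands highest at 1.22%, and the intervals of the 2 libraries of day 21 overlap.

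The detection of other genes set mature DC apart from the other myeloid groups. Detection is the share of barcodes with at least 1 UMI, over 55 mature DC (median 3281 UMIs a barcode), 46 Cd209a DC (6100.5), 31 cDC1 (3581) and 3483 C1q macrophages (4344), so that mature DC were the shallowest group. Cacnb3 was detected in 50.9% of mature DC, 0% of Cd209a DC, 3.23% of cDC1 and 0.287% of macrophages. Il12b, the shared subunit of interleukins 12 and 23, was found in 34.5% of mature DC, in no Cd209a DC or cDC1, and in 3.27% of macrophages. At this depth a count of 0 allows a share of barcodes with a UMI of up to 6.52% in Cd209a DC and 9.68% in cDC1, which is not a limit on cells that express the gene. The chemokine Ccl17 was found in 27.3%, 2.17%, 0% and 0.402% in the same order, and Il4i1, an enzyme that oxidizes amino acids, in 32.7%, 6.52%, 6.45% and 1.06%. Serpinb6b, a protease inhibitor, was found in 56.4%, 2.17%, 9.68% and 3.04%, and Serpinb9, the granzyme B inhibitor, in 43.6%, 4.35%, 6.45% and 6.14%. For each of these genes the share in mature DC was several times that in any other group. These shares are over all 55 barcodes, high C1q included. The part of free RNA in the shares of the other groups was not tested. After every barcode was thinned to 1000 UMIs, Cacnb3 was still detected in 25.5% of mature DC against 0% of both DC groups and 0.144% of macrophages, and Il12b in 16.4% against 0%, 0% and 1.21%.

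Genes of the regulators and of presentation were shared more widely. Relb was detected in 56.4% of mature DC, 26.1% of Cd209a DC, 19.4% of cDC1 and 22.1% of macrophages, and Traf1, an adaptor of TNF receptors, in 58.2%, 30.4%, 48.4% and 13.8%. Among ligands for T cells, Cd83 was found in 58.2%, 50%, 58.1% and 54.6%, Cd86 in 38.2%, 13.0%, 41.9% and 37.5%, and Cd274 in 40.0%, 10.9%, 9.68% and 34.3%. Cd83 thus differed little between the groups, and Cd86 was about as frequent in cDC1 and macrophages as in mature DC. H2-Aa, a class II antigen chain, was found in 92.7%, 84.8%, 100% and 92.2%. Of the genes of the DC lineage, Flt3, the receptor of the DC growth factor, was found in 29.1% of mature DC, 47.8% of Cd209a DC, 67.7% of cDC1 and 0.546% of macrophages. Zbtb46, the transcription factor of conventional DC, was found in 14.5%, 13.0%, 38.7% and 0.890%, and the endocytic receptor Ly75 in 32.7%, 4.35%, 22.6% and 1.26%.

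**Figure D3:**
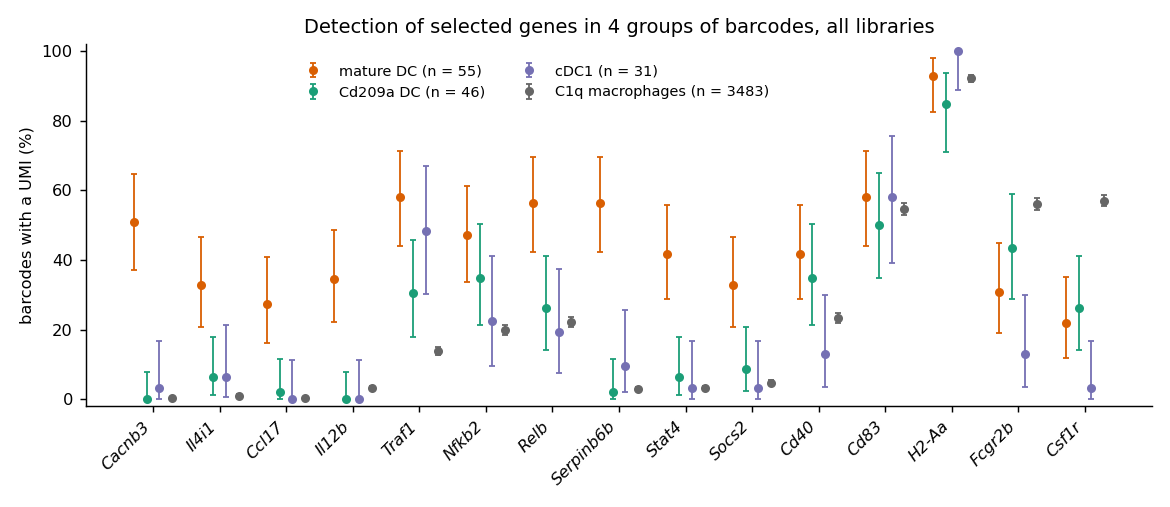
Percentage of barcodes with at least 1 UMI of selected genes in mature DC, Cd209a DC, cDC1 and C1q macrophages, with exact 95% binomial intervals. Cacnb3 is at 50.9% in mature DC and at or below 3.23% in the other groups, while Cd83 lies between 50% and 58.2% in all of them.

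Mature DC were compared with C1q macrophages of the same pools over day 0, control day 7 and L-fuc day 7, the 3 libraries with at least 5 barcodes in both groups, by edgeR on UMIs summed per library with library as a block. In 9178 genes tested, 5.62% differed, with 2.43% higher in mature DC (223 genes) and 3.19% lower (293), at an adjusted p below 0.05, and the median of all genes was -0.17 on the log2 scale. The default estimate of edgeR moved the spread of every gene fully onto the common trend, which makes its p-values very small. With its newer estimate, chosen after seeing the data, 76 genes were higher and 34 lower, and with DESeq2 67 and 401. Leaving out a library gave 103 higher and 154 lower without day 0, 179 and 166 without control day 7, and 124 and 153 without L-fuc day 7. Of the 50 higher genes named by the rule for named genes, 23 stayed higher in each of these 3 fits, with the newer estimate, without the block and with DESeq2, and these lead the account that follows. Of the 61 lower genes named by that rule, 5 stayed lower in all of these fits (Ccl3, Fcgr3, Fcgr4, Ifnb1 and Tnf).

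Cacnb3 showed the largest fold among the listed genes that were higher, with 261, 246 and 359 CPM in mature DC of day 0, control day 7 and L-fuc day 7 against 0.530, 1.16 and 0.713 CPM in macrophages. The groups did not overlap, and the log2 fold change was 8.30 (SE 0.43, adjusted p = 4.69e-78, or 0.000144 with the newer estimate). Ccl17 stood at 375, 203 and 54.4 CPM against 5.57, 1.16 and 0.713 (log2 6.26, SE 0.44, adjusted p = 0.000444 with the newer estimate). Both are genes that mature DC are known for, and each was higher in all 3 libraries. With low C1q their log2 fold changes were 9.07 and 6.90, and that of Il4i1 was 7.73. Il4i1 stood at 402, 565 and 131 CPM against 8.75, 1.39 and 0.713 (log2 6.68, SE 0.39, adjusted p = 0.00149 with the newer estimate). It was the checkpoint gene with the largest fold, followed by Cd200, an inhibitory ligand of myeloid cells (log2 3.39, adjusted p = 0.0329 with the newer estimate), whose call was lost without day 0. Cd274 was at 196, 246 and 87.1 CPM in mature DC and 109, 126 and 117 in macrophages, and did not pass the test (log2 0.37, adjusted p = 0.718). Of the 15 checkpoint genes tested, 4 were higher and 2 lower, or 2 and 0 with the newer estimate, at a median of 0.13.

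Of 17 receptors for cytokines and survival genes tested, 11 were higher in mature DC and 0 lower, at a median of 2.21, and 7 and 0 with the newer estimate, against 2.43% of all genes higher. With low C1q 7 were higher and 0 lower, at a median of 1.24. Serpinb6b stood at 234, 203 and 414 CPM in mature DC against 7.69, 3.24 and 10.7 in macrophages (log2 5.13, SE 0.36, adjusted p = 1.67e-43, or 0.000329 with the newer estimate). Serpinb9 stood at 228, 217 and 207 CPM against 7.16, 9.50 and 15.1 (log2 4.23, SE 0.35, adjusted p = 0.00149 with the newer estimate), the most even of these genes across libraries. With low C1q Serpinb6b stood at 5.77 and Serpinb9 at 5.17 on the log2 scale of fold changes. Traf1 stood at 201, 376 and 327 CPM against 29.2, 35.2 and 36.8 (log2 2.92, SE 0.31), and Birc2, an inhibitor of apoptosis, was also higher in all 3 libraries (log2 2.54, SE 0.42). Bcl2l14 of the Bcl2 family varied more, with 65.2, 29.0 and 196 CPM in mature DC against 3.45, 0.926 and 1.66 (log2 5.39, SE 0.62). Flt3 was higher by 4.88 (SE 0.69, adjusted p = 0.0103 with the newer estimate) from only 8, 4 and 5 UMIs, and DESeq2 gave it no adjusted p. Il1r2, the decoy receptor of interleukin 1, had 111 UMIs at day 0 against 2 and 1 in the day 7 libraries, and its log2 fold change of 2.21 turned to -0.17 without day 0.

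Among migration and cytoskeleton genes, 5 of 17 tested were higher and 1 lower, or 4 and 0 with the newer estimate. Those that stayed in every fit named above were Samsn1 (log2 2.80, SE 0.30), the integrin Itga4 (2.55, SE 0.32), the protease Mmp25 (3.93, SE 0.61) and the myosin Myo1g (2.01, SE 0.32). Itga4, which pairs with integrins for adhesion to vessel walls, stood at 174, 347 and 272 CPM in mature DC against 22, 58.6 and 42.5 in macrophages. Outside the lists the largest folds included Tbc1d4, which controls vesicle traffic (log2 4.54, SE 0.36), Lsp1, an actin-binding protein of leukocytes (3.92, SE 0.29), Net1 (3.68, SE 0.42), Mfge8, which bridges dying cells to phagocytes (3.68, SE 0.37), Rogdi (3.23, SE 0.33) and Tmem123 (3.07, SE 0.29). Lsp1 was the most abundant of these, with 184, 57 and 50 UMIs.

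Of 20 transcription regulators tested, 6 were higher and 1 lower, at a median of 0.40, and 5 and 0 with the newer estimate. Relb stood at 185, 174 and 185 CPM in mature DC against 37.1, 42.4 and 36.8 in macrophages (log2 2.06, SE 0.33, adjusted p = 9.51e-08, or 0.0142 with the newer estimate). Nfkb2 stood at 109, 116 and 185 CPM against 30.7, 34.0 and 34.9 (log2 1.85, SE 0.35, adjusted p = 0.0356 with the newer estimate). With low C1q Relb was higher by 2.71 and Nfkb2 by 2.44. Both non-canonical NF-kB genes were thus higher in each of the 3 libraries, while Rel (log2 0.39, adjusted p = 0.738) and Nfkb1 (0.44, adjusted p = 0.641) of the canonical pathway did not pass the test. Stat4, which signals for interleukin 12, was higher by 4.27 (SE 0.56) with 15, 2 and 17 UMIs, and Nr4a3 by 2.47 (SE 0.34). Irf8, the factor of the cDC1 lineage, was higher by 1.32 (SE 0.26, adjusted p = 0.0428 with the newer estimate), but not with DESeq2 (adjusted p = 0.0571) or without the block (adjusted p = 0.134).

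Costimulatory and presentation genes differed little from those of macrophages. Of 9 costimulatory ligands tested, 2 were higher (Cd80 and Cd40) and 0 lower, or 1 with the newer estimate. The call of Cd80 was lost without day 0, without L-fuc day 7, without the block and with DESeq2. Cd40 stood at 92.4, 521 and 142 CPM in mature DC against 73.2, 64.2 and 101.3 (log2 1.17, adjusted p = 0.00912). Its call was lost without control day 7, without the block, with DESeq2 and with the newer estimate (adjusted p = 0.324). Cd83 (log2 -0.39, adjusted p = 0.572) and Cd86 (0.11, adjusted p = 0.960) did not pass the test. Of 17 class II presentation genes 1 was higher (H2-Oa) and 4 lower (the proteases Ctss, Ctsd, Ctsb and Lgmn), of which only Lgmn held with the newer estimate. H2-Aa stood at 7784, 3475 and 9383 CPM in mature DC against 7621, 4796 and 7509 in macrophages (log2 -0.22, adjusted p = 0.821). Without the 23 barcodes of high C1q, 11 of these 17 genes were lower and 0 higher and the median moved from -0.37 to -2.86. In that fit 407 of 8652 genes were lower and 114 higher, and the median of all genes was -0.68. H2-Aa was then lower by 1.44 (adjusted p = 0.00331), so the closeness of class II levels depended on those barcodes. Of 24 class I genes 2 were higher and 0 lower, and B2m was at -0.18 (adjusted p = 0.858).

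Of 7 chemokines tested, 2 were higher and 4 lower, or 1 and 2 with the newer estimate. Ccl3 stood at 147, 130 and 98 CPM in mature DC against 541, 541 and 599 in macrophages (log2 -2.32, SE 0.31, adjusted p = 0.00772 with the newer estimate). The inflammatory cytokine Tnf stood at 92.4, 261 and 76.2 CPM against 625, 516 and 486 (log2 -2.29, SE 0.31, adjusted p = 0.0262 with the newer estimate). Both were lower in all 3 libraries and stayed so in every fit named above. Of 15 uptake receptors 8 were lower, among them the Fc receptors Fcgr3 (log2 -1.68, SE 0.31) and Fcgr4 (-2.34, SE 0.37), and 1 was higher, Ly75 (5.21, SE 0.61), or 3 lower and 1 higher with the newer estimate. Of all genes 3.19% were lower. With low C1q 10 of the 15 receptors were lower and 1 higher. Their median moved from -1.62 to -5.28, when that of all genes was -0.68. Ifnb1, which encodes interferon beta, had 0 UMIs in mature DC and 1537 in macrophages over the 3 libraries, at least 10.7-fold lower against a floor of 3 counts over the group. Mmp13, Aoah, Nos2 and Atp8b4 were also at 0 in mature DC and lower by the default estimate, but none of these 4 held with the newer one. Ccl5, which attracts T and NK cells, stood at 435, 4257 and 5530 CPM against 327, 409 and 660 (log2 2.18, SE 0.28), and its adjusted p was 9.95e-13 by the default and 0.111 by the newer estimate. Il12b stood at 147, 2071 and 131 CPM against 14.1, 17.6 and 57.2 (log2 3.80, SE 0.35, adjusted p = 0.129 with the newer estimate), and 95.1% of its UMIs in control day 7 came from 1 barcode.

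Lists of general programs had no higher gene against macrophages. Of 17 hypoxia and glycolysis genes 6 were lower, of 15 cell cycle genes 6, of 14 stress genes 4 and of 21 interferon-stimulated genes 5, each with 0 higher, and none of these calls held with the newer estimate. Of all genes 3.19% were lower. With low C1q these lists had 10 of 17, 4 of 15, 9 of 14 and 2 of 20 lower and 0 higher. Their medians were then -1.75, -3.16, -1.78 and -1.85, when 407 of all 8652 genes were lower at a median of -0.68. Among genes of other cells, 3 NK cell genes (Gzma, Ncr1 and Prf1) and 3 B cell genes (Cd79a, Cd79b and Iglc2) were higher in mature DC by the default estimate, the former from the day 7 libraries and the latter from day 0. Of 8 macrophage genes 7 were lower by the default estimate, which the choice of macrophages by C1q makes hard to read, and 0 held with the newer one.

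**Figure D4:**
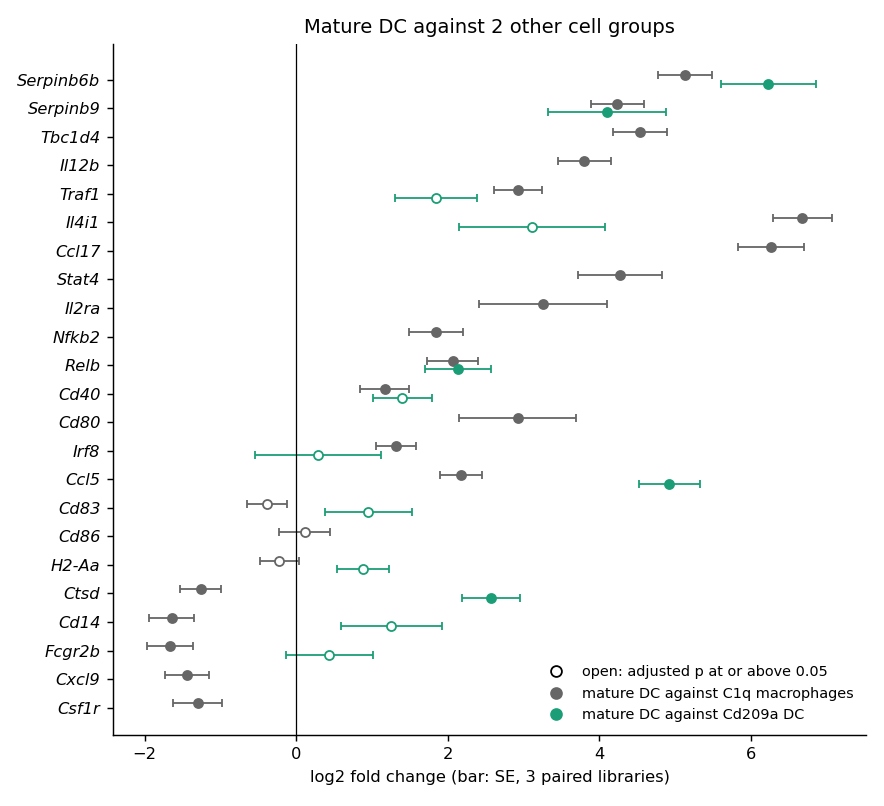
Log2 fold changes of listed genes in mature DC against Cd209a DC and against C1q macrophages, with standard errors from edgeR and open circles for an adjusted p at or above 0.05. Genes with 0 UMIs in either group are left out. Serpinb6b lies at 6.23 against Cd209a DC and 5.13 against macrophages, while H2-Aa lies at 0.88 and -0.22.

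Mature DC were next compared with Cd209a DC of the same 3 libraries, of which there were 5, 12 and 23. Here 1079 genes had enough counts, of which 5.38% differed, 3.43% higher in mature DC (37 genes) and 1.95% lower (21), with a median of -0.03. No gene passed when control day 7 was left out (256 had an unadjusted p below 0.05 by edgeR), while 74 were higher and 49 lower without day 0, and 65 and 33 without L-fuc day 7. The newer estimate gave 41 and 24 and DESeq2 35 and 14. The comparison shares its mature DC columns with the one above, so the values are set side by side only.

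Cacnb3 had 48, 17 and 33 UMIs in mature DC and 0 in each library of Cd209a DC, at least 24.6-fold higher against a floor of 3 counts over the group (edgeR adjusted p = 0.0276). Il12b had 27, 143 and 12 UMIs against 0, at least 45.7-fold higher (adjusted p = 0.0219), but 95.1% of those of control day 7 lay in 1 barcode and the call was also lost without L-fuc day 7 and without the block. Serpinb6b had 43, 14 and 38 UMIs against 0, 0 and 1, a ratio of 71.5 with a counting interval of 12.5 to 2855 (adjusted p = 0.0205). Serpinb9 had 42, 15 and 19 UMIs against 1, 2 and 0, a ratio of 19.1 (counting interval 6.29 to 94.6, adjusted p = 0.0414). Relb was higher at 185, 174 and 185 CPM against 54.6, 60.7 and 32.2 (log2 2.14, SE 0.43, adjusted p = 0.0468), but the call was lost whichever library was left out and by DESeq2 (adjusted p = 0.164). Il4i1 at 3.11 (adjusted p = 0.139), Traf1 at 1.85 (adjusted p = 0.120) and Cd40 at 1.40 (adjusted p = 0.107) did not pass the test.

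Of the chemokines, Ccl5 stood at 435, 4257 and 5530 CPM in mature DC against 0, 142 and 258 in Cd209a DC (log2 4.92, SE 0.40, adjusted p = 0.0168), a call that was also lost without the block. Cxcl16, a membrane-bound ligand of Cxcr6 on T cells, stood at 674, 652 and 577 CPM against 72.8, 20.2 and 45.1 (log2 3.88, SE 0.40, adjusted p = 0.0205). Both kept their size when barcodes of high C1q were left out, at 5.42 and 3.86. In the other direction Plac8, a gene of monocytes, stood at 48.9, 72.4 and 0 CPM in mature DC against 1274, 2124 and 2298 (log2 -5.32, SE 0.69, adjusted p = 0.0215). Ifitm1 and Ifitm3, interferon-induced membrane proteins, were lower by 3.56 and 3.05 (SE 0.39 and 0.60) on the log2 scale, but both calls were lost without the block. The lectin Cd209d and the interferon-inducible Ifi205 were lower too. Gng10, a G protein subunit, and the histone variant H2afy closed the list of largest decreases, at -2.34 and -1.47, and the call of H2afy was lost with DESeq2.

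Cd209a DC were chosen with at most 2 C1q UMIs and mature DC were not. Among the largest folds, the macrophage gene Apoe (log2 5.22, adjusted p = 0.0380), Ctsd (2.57), Gatm (3.47) and Fabp5 (3.58) had too few counts for a fit without the barcodes of high C1q. Without them Il1b moved from 1.60 to -0.08, Ctss from 1.59 to -0.67 and Lgmn from 1.60 to -0.20. The tetraspanin Cd63 (3.62), the membrane protein Basp1 (2.96), Id2, a factor of DC development (2.70), Samsn1 (2.79) and the noncoding AW112010 (3.26) were higher and stayed higher without them. Of 12 class II genes tested 3 were higher and 0 lower at a median of 0.88, and without those barcodes 0 of 11 were higher and 1 lower at a median of -0.67. For cDC1 only 2 libraries held at least 5 barcodes of both groups, and no fit was made.

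Cacnb3 also tracked other genes between single mature DC, which is a description over 28 barcodes with it and 27 without, of similar depth (medians 3185 and 3282 UMIs). Nfkb2 was detected in 20 of the 28 and 6 of the 27, Stat4 in 18 and 5, Traf1 in 22 and 10, Il4i1 in 14 and 4, Tbc1d4 in 21 and 10, Net1 in 19 and 10, Cd274 in 16 and 6 and Socs2 in 13 and 5. These genes were thus more frequent where Cacnb3 was found. Relb in 19 and 12 and Ccl5 in 26 and 18 were also more frequent there. Cd83 in 15 and 17, Cd40 in 11 and 12, Ccl17 in 6 and 9 and the macrophage gene C1qa in 15 and 13 were not, or only slightly so. Ccr7 in 23 and 18, Fscn1 in 27 and 25 and Ccl22 in 19 and 16 were read by the rule, which limits what their detection can show.

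Within mature DC, L-fuc was set against control water at day 7 in 18 and 13 barcodes, with 91864 and 69065 UMIs. Among 1035 genes that reached 20 UMIs over both libraries, 8.50% were at least 2-fold higher with L-fuc (88 genes) and 10.5% lower (109), at a median of -0.06. Class II presentation genes stood higher with L-fuc in the summed counts, with 7 of 12 measured past 2-fold, 0 lower and a median of 1.21. Cd74, the invariant chain, had 2531 UMIs with L-fuc against 750, or 27552 against 10859 CPM, a ratio of 2.54 (exact interval 2.34 to 2.76). H2-Aa had 862 against 240 UMIs, a ratio of 2.70 (2.34 to 3.13), H2-Ab1 633 against 133 (3.58, 2.96 to 4.35) and H2-Eb1 806 against 221 (2.74, 2.36 to 3.20). The intervals count molecules, but 62.7% of the class II UMIs of L-fuc day 7 came from 1 barcode. Without the top barcode of each library 2 of 10 genes were higher and the median was 0.64, when 22.8% of all genes were past 2-fold in either direction, and with cells weighted equally 0 were past 2-fold and the median was 0.34. With all 3 genes of the rule required, 9 of 11 were higher and the median was 2.08, when 91 of all 446 genes were higher and 62 lower. With the barcodes of at most 2 C1q UMIs the median was -0.29, with 0 of 6 higher and 1 lower. Per barcode, class II genes took a median of 1.62% of UMIs with L-fuc (0.161 to 15.9) and 2.50% with control water (0.177 to 6.02), the opposite order from the sums.

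**Figure D5:**
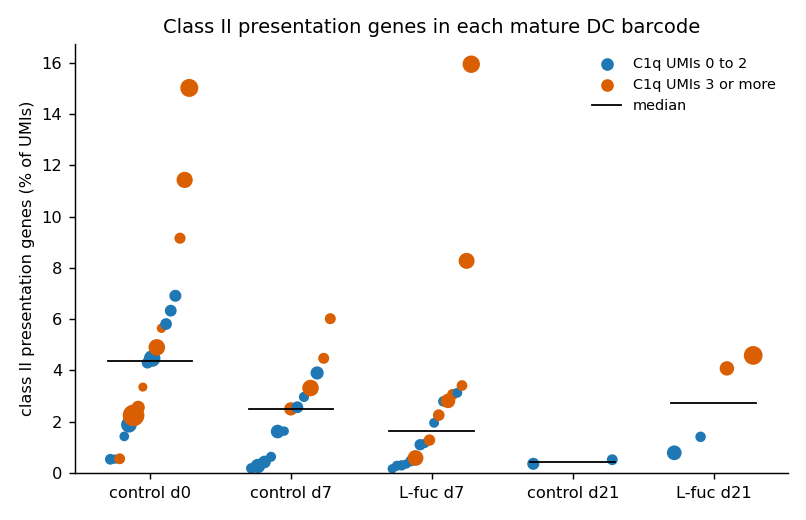
Share of each mature DC barcode's UMIs that falls on class II presentation genes, in percent, by library, with dot size growing with the barcode's UMIs, orange for barcodes of at least 3 C1q UMIs, blue for the others and the median of each library marked. The medians were 4.38% at day 0, 2.50% in control day 7, 1.62% in L-fuc day 7, 0.435% in control day 21 and 2.74% in L-fuc day 21, and the highest barcode of L-fuc day 7 stood at 15.9%.

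Of the other lists at day 7, all 3 measured genes of cDC2 or monocyte-derived DC (Sirpa, Itgax and Csf1r) were past 2-fold higher with L-fuc at a median of 1.33, as were all 3 NK cell genes (Gzma, Ncr1 and Prf1) at 2.50 and 2 of 3 uptake receptors (Fcgr2b and Cd14) at 1.73. Csf1r is also among the listed macrophage genes. Of the 11 cDC2 or monocyte-derived DC genes, Cd209a, Mgl2, Clec10a and Cd209d had 0 UMIs in L-fuc day 7. In control day 7 Cd209a, Mgl2, Clec10a and Cd7 had 0. A single barcode held 43.1% of the UMIs of this list with L-fuc and 52.2% with control water. With cells weighted equally 1 of the 3 uptake receptors was past 2-fold, at a median of 0.54, and with low C1q none had enough UMIs. Of 8 macrophage genes 3 were past 2-fold higher and 0 lower, at a median of 0.60. In the other direction, 2 of 4 costimulatory ligands (Cd40 and Tnfsf9) were past 2-fold lower and 0 higher at a median of -1.04. Of 5 checkpoint genes 2 (Cd274 and Il4i1) were lower and 0 higher at -0.58. With control water 1 barcode held 63.6% of the UMIs of the costimulatory list, against 31.25% with L-fuc. For the checkpoint list these shares were 54.97% and 29.2%. The part of single barcodes in these differences was not tested. Hypoxia and glycolysis genes were past 2-fold lower with L-fuc in 4 of 10 measured and higher in 0, at a median of -0.96. This was 3 of 7 at -0.85 with low C1q, when 36 of all 356 genes were higher and 58 lower. It was 3 of 10 at -0.42 with cells weighted equally, when 95 of all 1035 were higher and 150 lower, and 0 of 6 lower and 1 higher at -0.30 with all 3 genes of the rule required. Tumor genes stood at 1042.5 CPM in control day 7 and 43.5 in L-fuc day 7, all 5 barcodes with tumor genes were in control day 7, and their part in this difference was not tested. Aldoa had 79 UMIs with L-fuc against 128 (ratio 0.464, 0.346 to 0.619), Tpi1 37 against 61 (0.456, 0.295 to 0.697), Pgk1 26 against 46 (0.425, 0.252 to 0.702) and Bnip3 4 against 20 (0.150, 0.0374 to 0.449). Aldoa, Tpi1 and Pgk1 are enzymes of glycolysis, and Bnip3 is a mitochondrial protein induced by hypoxia. Of 10 transcription regulators 0 were past 2-fold in either direction, at a median of 0.23. With cells weighted equally 4 of 10 were higher and 0 lower at 0.73, and with low C1q 1 of 4 was higher at 0.77. With all 3 genes of the rule required 1 of 4 was higher and 1 lower, at -0.39. The counts of all genes in these settings are given above. Of 20 class I genes 0 were higher and 2 lower at a median of 0.08, while with low C1q 2 of 11 were higher and 0 lower at 0.57. With all 3 genes of the rule required 0 of 13 class I genes were higher and 3 lower, at -0.19. Cacnb3 had 33 against 17 UMIs (1.46, 0.790 to 2.79) and Relb 17 against 12 (1.07, 0.479 to 2.44), intervals that span 1. Bcl2l14 was the receptor and survival gene past 2-fold, with 18 UMIs in 11 barcodes against 2 in 2 (6.77, 1.62 to 60.1).

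Single genes with the largest differences at day 7 mostly came from few barcodes or from genes of other cells. Ccl7, a monocyte attractant, had 47 UMIs with L-fuc against 0, 95.7% of them in 1 barcode, and the lectin Clec4e had 32 against 0, all in 1 barcode. Cxcl9 had 150 against 6 UMIs, 79.3% of them in 1 barcode, Cd14 of monocytes and macrophages 93 against 4, and Gzma of NK cells 174 in 2 barcodes against 14 in 1. Il12b had 12 UMIs in 7 barcodes with L-fuc and 143 in 5 with control water (ratio 0.0631, 0.0319 to 0.114). As 95.1% of the latter lay in 1 barcode, the number of Il12b barcodes did not follow the ratio. The lower genes Sparc (4 against 64 UMIs), Tm4sf1 (2 against 37) and Ecrg4 (3 against 33) were spread over 9 or 10 control barcodes each, in the library with the most Sox10 barcodes, and Sparc is among the listed tumor genes. The immediate early gene Egr1 had 3 against 29 UMIs, the latter in 10 barcodes.

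At day 21 only 4 barcodes with L-fuc and 2 with control water were found, so the values describe single cells, with 53069 and 6748 UMIs in all. Of 453 genes 24.3% were at least 2-fold higher (110) and 21.2% lower (96), and the median of all genes was 0.35. With size factors in place of total UMIs 70 were higher and 123 lower, the median of all genes moved to -0.10, and the lists below kept their directions (class II 2.31, transcription regulators -1.82). Class II genes were higher in 6 of 8 measured, at a median of 2.76, among them Cd74 with 17449 against 1186 CPM (926 UMIs against 8, ratio 14.7, exact interval 7.44 to 34.2). H2-Aa stood at 7330 against 593 CPM (389 UMIs against 4, ratio 12.4, 4.79 to 45.6), H2-Eb1 had 231 UMIs against 2 (14.7, 4.02 to 122), and H2-Ab1 had 131 against 0. All 4 L-fuc barcodes held H2-Ab1 and neither control barcode did. Without the top barcodes 6 of 8 were higher at a median of 1.61, when 42.6% of 197 genes were past 2-fold in either direction at a median of -0.32. With low C1q only 2 class II genes could be measured, at a median of 1.08. Macrophage genes stood higher in the same comparison, in 3 of 4 measured (C1qb, C1qc and Apoe) and lower in 0 at a median of 1.67, and 2 of the 4 L-fuc barcodes and 0 of the 2 control barcodes were of high C1q. The part of these barcodes in the class II difference was not tested beyond those values. Checkpoint genes were higher in 3 of 4 measured (Cd200, Il4i1 and Nfkbia) and lower in 0, at a median of 1.56. This was the opposite order from the sums of day 7, where 1 barcode held 54.97% of the control UMIs of this list. At day 21 a single barcode held 65.9% of the L-fuc UMIs of this list. Transcription regulators were lower in 8 of 10, at a median of -1.38, but 90.9% of the control UMIs of this list lay in 1 of the 2 barcodes. Among them were Rel at 509 against 3705 CPM (27 UMIs against 25), Irf1 at 415 against 1482 (22 against 10) and Etv3 at 320 against 3260 (17 against 22, all in 1 control barcode). Hypoxia and glycolysis genes, lower at day 7, were here higher in 2 of 4 measured (Gapdh and Pgk1) and lower in 1 (Ldha). Their median was 0.81, or 0.08 with cells weighted equally. The genes with the largest decreases, Flrt3 (56.5 against 7410 CPM), Atp2b1 (226 against 2964), Rap2b (358 against 3260) and Mxd1 (415 against 3260), had at least 95% of their control UMIs in 1 barcode, and Arpc1b, an actin nucleation subunit, had 56 UMIs against 0.

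Between day 0 and control day 7, with 18 and 13 barcodes, class II genes stood lower at day 7 in the summed counts. The comparison shares control day 7 with that of L-fuc at day 7. Of 1627 genes 11% were at least 2-fold higher at day 7 (179) and 11.2% lower (183), at a median of -0.04. Class II genes were lower in 8 of 13, at a median of -1.16, and in 5 of 8 at -1.11 with low C1q, when 125 of all 608 genes were lower and 73 higher. They were lower in 2 of 7 at -0.84 once those with Cd79a or Cd79b, all of day 0 among barcodes of low C1q, were left out as well, when 115 of all 540 genes were lower and 60 higher at a median of -0.38, so the count is near that of all genes. With cells weighted equally they were lower in 4 of 13 at -0.87, when 270 of all 1627 genes were lower and 241 higher. Cd74 had 750 UMIs at day 7 and 5112 at day 0, or 10859 against 27788 CPM (ratio 0.391, 0.361 to 0.422), and H2-Aa 3475 against 7784 CPM (0.446, 0.388 to 0.512). Ccl5 rose in the sums from 435 to 4257 CPM (9.79, 7.62 to 12.7), with UMIs in 11 barcodes of each library. Cd40 had 36 UMIs at day 7 and 17 at day 0 (5.64, 3.09 to 10.7), with 80.6% of the former in 1 barcode. Cacnb3 (0.943, 0.509 to 1.67) and Relb (0.940, 0.443 to 1.86) had intervals that span 1.

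Several of the other large differences between these libraries lay in genes of other cells or in 1 barcode. The tumor gene Sparc had 64 UMIs at day 7 and 0 at day 0, Tm4sf1 37 and 0, and Ecrg4 33 and 1. Cd79a, a B cell receptor subunit, had 0 and 53 UMIs, the latter in 4 barcodes. Hmox1, which degrades heme, had 3 and 361 UMIs, 82.5% of the latter in 1 barcode, and the macrophage receptor Marco had 0 and 85, all in 1. Il12b had 143 and 27 UMIs, the noncoding Neat1 31 and 6, Ccl7 0 and 39 with 94.9% in 1 barcode, and Tnfrsf9 (4-1BB, a costimulatory receptor) 0 and 40 in 6 barcodes.

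Genes of fucose metabolism and fucosylation, which L-fuc feeds, were close to the limit of detection in mature DC. The list of 18 had 37, 24, 42, 1 and 14 UMIs in the 5 libraries, from 9, 7, 10, 1 and 8 genes. Fuca1, a lysosomal fucosidase, led with 14 UMIs at day 0, 8 in control day 7, 17 in L-fuc day 7, 0 in control day 21 and 5 in L-fuc day 21. The core fucosyltransferase Fut8 had 0, 4, 5, 1 and 2. Of 11 of these genes tested against macrophages 0 passed at an adjusted p below 0.05 by edgeR (1 had an unadjusted p below 0.05) and 0 by DESeq2, which gave 7 of them no adjusted p. With low C1q 1 of 10 was lower. Only Fuca1 reached 20 UMIs over both day 7 libraries, with a ratio of L-fuc to control of 1.60 (0.653 to 4.28), an interval that spans 1.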

How the data were processed

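Cells were analysed in 5 gene expression libraries, and the matching receptor libraries served only to look up a T cell receptor contig for each barcode. Per the labels, the submitters' processing notes name Cell Ranger 3.0, Seurat 4.0 and the mm10 genome, while the matrix headers name Cell Ranger 7.1.0. The authors deposited raw UMI counts for 32285 genes in each called barcode, without normalization, and no column of another series was present. The deposited clonotype tables and other receptor files were not used here.

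The members and gene lists (31 lists, 356 genes, 3 of them not in the matrices) were chosen with earlier results of these data known. Besides list genes, the text names the 5 highest and 5 lowest log2 ratios among genes with at least 30 UMIs in 2 libraries, and, in a fit, the 10 largest increases and 5 largest decreases past the threshold with at least 200 UMIs. Mitochondrial, ribosomal, Gm-numbered and Rik genes were counted but not named.

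Cd209a DC had at least 2 UMIs of Cd209a, cDC1 at least 2 of Xcr1 and Clec9a, both with at most 2 C1q UMIs, and C1q macrophages all 3 C1q genes with a sum of at least 10. Each group also lacked Cd3 and Sox10 UMIs. Counts were summed per library and tested with edgeR 4.0.16 (filterByExpr, TMM, quasi-likelihood test with library as a block, Benjamini-Hochberg adjustment, threshold 0.05), leaving out the genes that defined the groups. The block is set because both groups of cells come from the same pool. Libraries are single pools, so the fits rest on 3 libraries that differ in time and treatment. In the Cd209a DC fit p-values measure the spread between these libraries, drawn in part toward a common trend. In the macrophage fit the default estimate used the common trend alone, so its p-values do not measure a gene's own spread between libraries. Between libraries, log2 ratios of CPM used a pseudocount of 1 UMI and a minimum of 20 UMIs. Shares have exact (Clopper-Pearson) and ratios exact conditional 95% intervals, and a floor is 3 counts.

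On simulated counts the Cd209a DC fit recovered 48.2% of 4-fold and 92.5% of 8-fold changes over 854 genes tested, and the macrophage fit 11.0% and 41.0% over 8780. The simulation gave all genes the same spread and the libraries no difference but depth. It changed only genes above a set number of UMIs expected in mature DC, so the rates do not cover genes with few UMIs. DESeq2 1.42.0 and the other alternatives are in the closing section. Promoters came from RefSeq (GRCm38.p6). No protein sequence was used here.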

Additional observations from a re-analysis of the deposited data

How the results depend on the processing

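Against Cd209a DC, 37 genes were higher and 21 lower in mature DC. These counts were 148 and 70 with no filter on low counts, 8 and 2 in barcodes with all 3 genes of the rule, and 58 and 45 in barcodes with no receptor contig and at most 2 C1q UMIs. Without a UMI of the B cell genes Cd79a or Cd79b as well, 38 were lower, and with cells thinned to 1000 UMIs 11 were higher and 4 lower. Leaving out a library gave 0 to 74 higher and 0 to 49 lower. Without the library block 30 were higher and 20 lower, and the pairing by library comes from the shared pool.

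Against macrophages, where 223 were higher and 293 lower, 70 and 20 were without the block, which kept 90 of the 516 calls. DESeq2 gave 67 and 401, the newer estimate 76 and 34, barcodes with all 3 genes 92 and 128, those of low C1q 114 and 407, those also without B cell genes 112 and 443, and thinned cells 73 and 146. Leaving out a library gave 103 to 179 higher and 153 to 166 lower.

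Shares per library, in percent from day 0 to L-fuc day 21, changed as follows. With all 3 genes required they were 0.408, 0.0168 and 0.0553 up to day 7 and 0 in control day 21, so the ratio at day 21 had only a lower limit, 0.878. With low C1q they were 0.612 at day 0 and 0.111 in L-fuc day 7, without B cell genes as well 0.408 and 0.111, and with barcodes thinned to 2000 UMIs 0.651 and 0.0983. Among barcodes with Ptprc control day 7 stood at 0.162, and without Sox10 the day 7 libraries stood at 0.189 and 0.335. Among DC they were 66.7, 41.9, 38.3, 12.5 and 36.4. The ratio of control day 7 to day 0 was 0.142 by Ptprc and 0.629 among DC, and the ratio of L-fuc to control at day 7 turned to 0.913 among DC.

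Within mature DC at day 7, genes 2-fold higher and lower with L-fuc numbered 210 and 375 with a minimum of 10 UMIs, 32 and 21 with 50, and 36 and 58 with low C1q (the same without B cell genes), and 91 and 62 with all 3 genes. At day 21 they were 140 and 255 with 10 UMIs, 56 and 23 with 50, 43 and 28 with low C1q (the same without B cell genes), 70 and 123 with size factors, and 79 and 99 with cells weighted equally. From day 0 to control day 7 they were 641 and 346 with 10 UMIs, 40 and 84 with 50, 60 and 97 with all 3 genes, 73 and 125 with low C1q, 60 and 115 without B cell genes as well, and 223 and 159 with size factors. Against 88 and 109, 110 and 96, and 179 and 183 in the report, the larger side turned with 50 UMIs and with all 3 genes at day 7, with 10 UMIs, size factors and equal weights at day 21, and with 10 UMIs and size factors from day 0 to day 7. The class II median was -0.29 at day 7 and 1.08 at day 21 with low C1q, with or without B cell genes, and that of control day 7 over day 0 was -1.11 with them and -0.84 without.

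Single genes that reversed against Cd209a DC were Il1b (-0.082), Ctss (-0.67, or -0.62 without B cell genes) and Lgmn (-0.20), all with low C1q. Against macrophages Lck reversed with low C1q (-0.53, or -0.50 without B cell genes), Cd79b with DESeq2 (-0.14), without B cell genes (-8.99) and without day 0, Iglc2 without B cell genes (-0.32) and without day 0, and Il1r2 without day 0. Leaving out each library gave -2.09 to 2.05 for Cd79b, -0.19 to 4.27 for Iglc2 and -0.17 to 2.80 for Il1r2. The causes were not tested. The denominators without Sox10, thinning to 1000 UMIs, the newer estimate and the removal of B cell genes were chosen after seeing the data. Of 220 values that answer a comparison under an alternative, 137 stayed the same, 80 moved and 3 reversed, and all p-values rest on 3 libraries and 49 mature DC. With 1 library per condition no difference between conditions was tested, and differences at day 21 rest on 6 barcodes. No sample lay in a group large enough to look for outliers. The fit against cDC1 was not run.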
